A study of Homo sapiens with 2 samples.

Results

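The set described here is the human ATP-binding cassette (ABC) transporters of subfamilies A, B, C and G. Many of its members carry lipids, sterols, drugs or glutathione conjugates across membranes. They were taken by symbol alone, as every gene named ABCA, ABCB, ABCC or ABCG followed by a number, which gave 38 of the 60616 genes in the deposited tables. The cells were HSC-3, a human cell line established from a squamous cell carcinoma of the tongue. One culture was treated with 1 µM FIN56 for 48 h and the other with the vehicle, 0.1% DMSO, for which the labels give no time. FIN56 is a small-molecule inducer of ferroptosis, an iron-dependent death driven by peroxidation of membrane lipids. There was 1 RNA-seq library per condition, so no difference below has a replicate check and none was tested.

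Most ABC transporters use ATP to move a substrate across a membrane. ABCA1 hands cholesterol and phospholipid to lipid-poor apolipoprotein A-I, and ABCG1 exports sterol to mature high-density lipoprotein. Both are known targets of the liver X receptors, which sense oxysterols. The pumps of subfamilies B and C and ABCG2 are known instead for removing drugs and conjugates, and ABCC1 exports glutathione, its conjugates and oxidized glutathione. The comparison asked how transcripts of sterol exporters and of these pumps stood in FIN56 cells against DMSO cells.

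Levels are given as FPKM, fragments scaled by effective transcript length and library size, as deposited, and the FPKM ratio is FIN56 over DMSO. A count ratio is the ratio of expected counts per library total, and its exact 95% Clopper-Pearson interval covers counting error only. Expected counts are estimates in which reads that match several genes are divided among them. Their totals were 70184517 (DMSO) and 73062209 (FIN56). A ratio was read only for genes above 0 FPKM in both libraries with at least 50 expected counts over both, which 21 members and 15770 of all genes passed. All 8 squamous epithelial markers passed, with a summed FPKM of 4488 in DMSO and 4209 in FIN56. KRT5 alone had 2078 and 1647 FPKM, and 5 of the 8 were higher in FIN56. Of the leukocyte markers, PTPRC and CD3E had 0 counts in both libraries, whereas CD68, a lysosomal protein, had 57.27 FPKM in DMSO and 24.58 in FIN56. The 4 fibroblast markers summed to 4.56 and 2.51 FPKM, nearly all from COL1A1, and COL3A1 had 0 and 1 count. The 3 endothelial markers summed to 0.08 FPKM in each library and the 3 hepatocyte markers to 0.04 and 0.02, with ALB and TTR at 0. The part of these markers in the results below was not tested. In bulk RNA of a cell line, fewer cells expressing a marker and less of its RNA per cell cannot be told apart.

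The promoters printed here belong to ABCA1, a sterol exporter of the comparison, and to ABCA12 and ABCB6. ABCA12 and ABCB6 were the only members with an FPKM ratio past 1.5 or 1/1.5. Each is the 250 bases before a start site in RefSeq, on GRCh38.p14, read on the gene's strand. All of these genes are on the minus strand. Capitals mark the E-box CACGTG, the antioxidant-type letters TGACNNNGC, the half-site AGGTCA, the sterol-type letters TCACNCCAC, and a direct repeat of AGGTCA half-sites 4 bases apart with at most 1 mismatch in each, all searched on both strands.
ABCA1, chr9:104928156-104928405: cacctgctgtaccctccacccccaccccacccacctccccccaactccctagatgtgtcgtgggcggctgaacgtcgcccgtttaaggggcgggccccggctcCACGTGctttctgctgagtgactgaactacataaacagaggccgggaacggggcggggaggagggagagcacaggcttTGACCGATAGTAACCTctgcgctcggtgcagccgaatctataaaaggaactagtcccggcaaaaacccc
ABCB6, chr2:219218959-219219208: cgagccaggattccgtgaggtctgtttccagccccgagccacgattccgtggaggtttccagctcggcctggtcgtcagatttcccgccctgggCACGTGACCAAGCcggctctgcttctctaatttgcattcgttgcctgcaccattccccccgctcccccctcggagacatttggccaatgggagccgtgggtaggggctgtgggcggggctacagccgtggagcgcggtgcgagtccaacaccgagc
ABCA12, chr2:215138627-215138876: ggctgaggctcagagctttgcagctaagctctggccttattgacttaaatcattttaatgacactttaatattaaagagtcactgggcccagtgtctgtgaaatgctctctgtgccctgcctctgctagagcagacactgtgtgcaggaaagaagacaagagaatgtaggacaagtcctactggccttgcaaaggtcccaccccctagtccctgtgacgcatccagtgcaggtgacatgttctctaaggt
The ABCA1 sequence held an E-box at position -147 from the start and the repeat of half-sites at -69. The arrangement of that repeat is the one liver X receptors are known to bind, and 1.18% of the 35116 promoters in the table held such a match. In ABCB6 the E-box overlapped the antioxidant-type letters. The ABCA12 window held none of these letters, whereas a second ABCA12 start in the table had an E-box in its window. Of all promoters, 6.35% held the E-box, 10.9% the antioxidant-type letters, 12.1% the half-site and 0.883% the sterol-type letters. The table had no entry for ABCG1, ABCC1 or ABCC3, so their promoters were not searched. It had entries for 28 of the 38 members, with 45 promoters in all. Of these 45, 17.8% held the E-box, 15.6% the antioxidant-type letters, 2.22% the half-site and 0 the sterol-type letters. The repeat of half-sites was in 6.67% of them, from 2 genes, ABCA1 and ABCC6. No binding was measured, so these matches are descriptions only.

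Most measured ABC transporters had lower transcript levels in FIN56 cells. The FPKM ratio was below 1 for 18 of the 21 members, against 47.3% of all genes, and the median log2 FPKM ratio was -0.25 for the members and 0.02 for all genes. ABCA12 was the only member at a ratio of 1.5 or more, where 6.84% of all genes stood, and ABCB6 the only one at 1/1.5 or less, where 10.1% of all genes stood. By count ratio, 4 members stood at 1/1.5 or less (ABCC1, ABCB6, ABCA7 and ABCA13), also against 10.1% of all genes, and ABCA12 alone at 1.5 or more, against 5.96%. By counts, the interval lay wholly below 1 for 16 members (33.7% of all genes), above 1 for ABCA12 alone (34.2%), and held 1 for ABCA5, ABCB9, ABCC2 and ABCC9 (32.1%). All 38 members together held 0.0565% of the counts in DMSO and 0.0435% in FIN56.

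**Figure D1:**
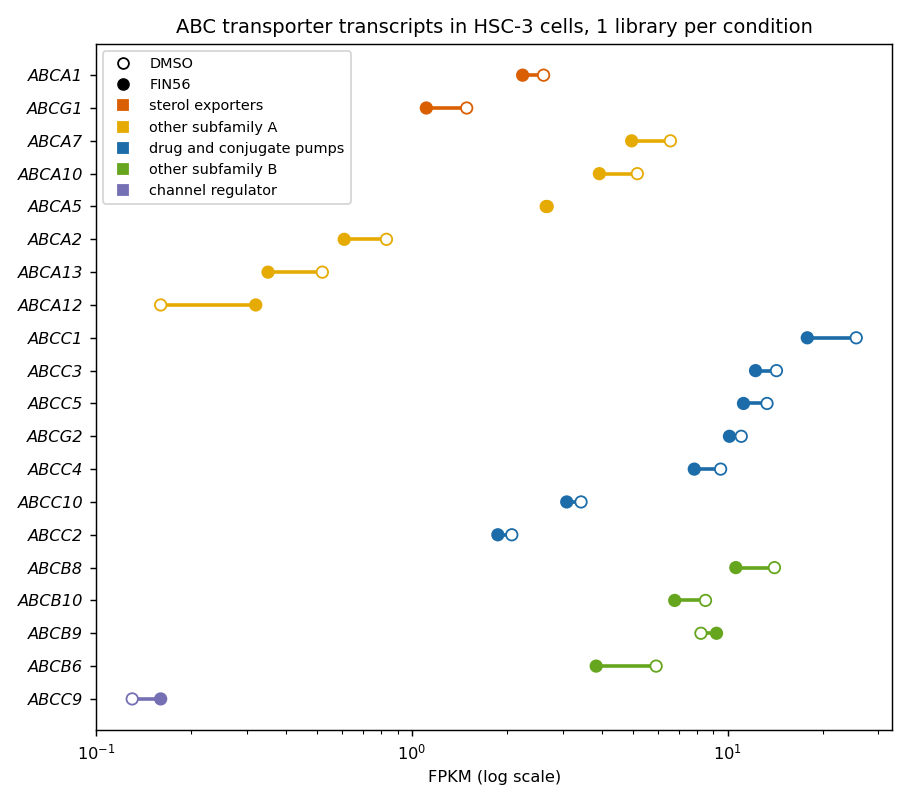
FPKM (log axis) of 20 of the 21 ABC transporters that passed the minimum, open circles for the DMSO library and filled circles for the FIN56 library, 1 library each, coloured by role. ABCC1 runs from 25.51 to 17.85 FPKM, and only ABCA12, ABCB9 and ABCC9 lie higher in FIN56.

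The sterol exporters were both lower. ABCA1 (chromosome 9, minus strand) had 2.61 FPKM and 1805 counts in DMSO and 2.24 FPKM and 1655 counts in FIN56. Its FPKM ratio was 0.858 and its count ratio 0.881 (0.823 to 0.942). ABCG1 was scarcer and further down. It had 1.49 FPKM and 296 counts in DMSO and 1.11 FPKM and 219 counts in FIN56, with an FPKM ratio of 0.745 and a count ratio of 0.711 (0.594 to 0.849). The ratio of the ABCG1 to the ABCA1 counts itself was 0.807 times as high in FIN56 as in DMSO, with an exact conditional 95% interval of 0.666 to 0.977. ABCG4, which exports sterol mainly in brain, and ABCG5 and ABCG8, which form the intestinal and hepatic plant-sterol exporter, had 0 to 4 counts in each library.

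Among the drug and conjugate pumps, all 7 that passed the minimum had an FPKM ratio below 1, against 47.3% of all genes, and the median log2 FPKM ratio was -0.22. ABCC1 (chr16:15949138-16143257, plus strand), the glutathione-conjugate pump also called MRP1, was the member with the highest FPKM in DMSO. It had 25.51 FPKM and 9442 counts there, and 17.85 FPKM and 5505 counts in FIN56. The FPKM ratio was 0.700, short of the 1/1.5 threshold, while the count ratio was 0.560 (0.542 to 0.579), beyond it. ABCC3, an organic-anion and glucuronide exporter, had 14.26 and 12.24 FPKM, and a count ratio of 0.729 (0.692 to 0.769). ABCC1 and ABCC3 were the pumps furthest down by counts, and the other 5 lay closer to 1. By FPKM ratio, ABCC4 (0.825) and ABCC5 (0.842) were further down than ABCC3 (0.858).

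ABCC4, which exports cyclic nucleotides and prostaglandins, had 9.49 FPKM in DMSO and 7.83 in FIN56, with a count ratio of 0.830 (0.791 to 0.872). ABCC5, an exporter of cyclic nucleotides, had 13.31 and 11.21 FPKM, and a count ratio of 0.952 (0.911 to 0.995). ABCG2, the breast cancer resistance protein, had 11.03 and 10.12 FPKM, with a count ratio of 0.915 (0.865 to 0.968). These pumps were each lower in FIN56 by less than ABCC1. ABCC10, a lipophilic-anion pump, had 3.43 and 3.09 FPKM and a count ratio of 0.836 (0.749 to 0.933). ABCC2, the apical conjugate pump of liver and kidney, had 2.07 and 1.87 FPKM, and its count ratio of 0.940 (0.837 to 1.06) did not exclude 1. ABCC11, a pump known for the earwax trait, had 10.1 counts in DMSO and 7.17 in FIN56 and fell below the minimum. ABCB1, the P-glycoprotein of multidrug resistance, which is singled out here after its values were seen, had 3 and 4 counts.

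**Figure D2:**
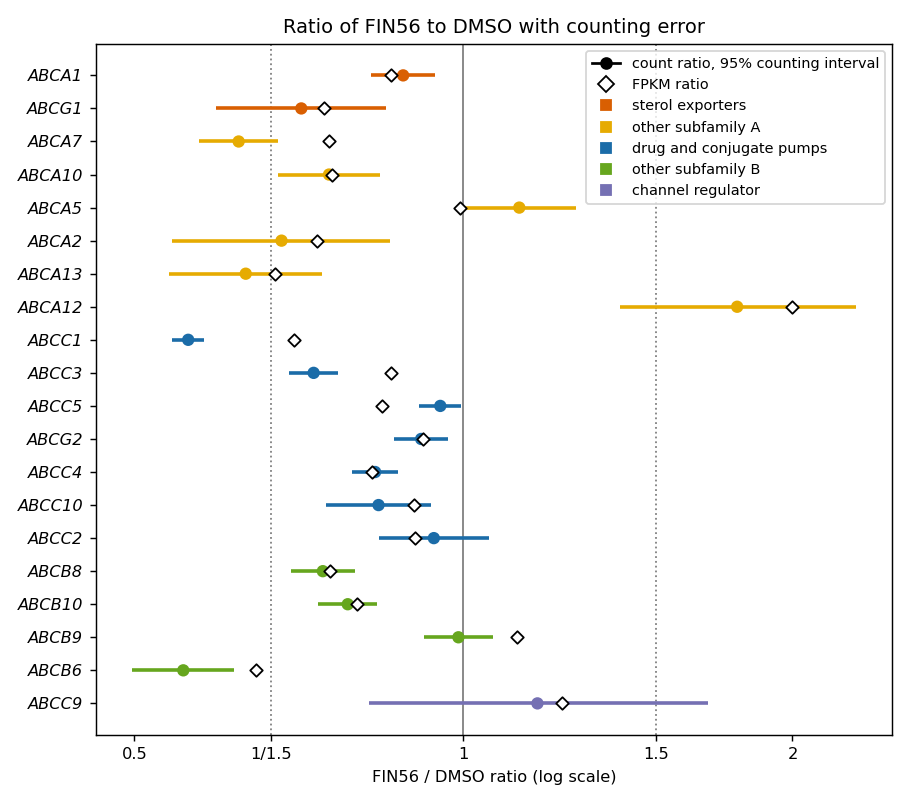
Ratio of FIN56 to DMSO for the same 20 members on a log axis, with points for the FPKM ratio and for the count ratio, whose bar is the exact 95% counting interval, and the 1.5 and 1/1.5 thresholds. The ABCC1 count ratio of 0.560 lies beyond 1/1.5 while its FPKM ratio of 0.700 does not.

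The contrast between sterol exporters and pumps was small. The mean log2 FPKM ratio of ABCA1 and ABCG1 was -0.32, against a median of -0.22 over the 13 members of subfamilies B and C and ABCG2 that passed, a difference of -0.10 whose sign changed with a pseudocount of 1 FPKM (0.0074). Counts allow a narrower contrast, with the 14 drug and conjugate pumps alone and with no scaling between libraries. The ratio of ABCA1 to the summed drug and conjugate pumps was 1.19 times as high in FIN56 as in DMSO (1.11 to 1.27). Without ABCC1 among the pumps it was 1.02 (0.954 to 1.10). The ratio of ABCG1 to the summed pumps was 0.957 (0.799 to 1.15), and 0.826 (0.690 to 0.989) without ABCC1. The direction was the same with and without ABCC1 for each exporter, but the ABCA1 interval held 1 without ABCC1 and the ABCG1 interval held 1 with it.

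By counts, the interval held 1 in 8 of 14 comparisons of 1 exporter with 1 pump. ABCA1 was higher relative to ABCC1, at 1.57 (1.46 to 1.70), and to ABCC3, at 1.21 (1.11 to 1.32). ABCG1 was higher relative to ABCC1, at 1.27 (1.06 to 1.52). It was lower relative to ABCC2, at 0.756 (0.610 to 0.937), to ABCC5, at 0.746 (0.620 to 0.897), and to ABCG2, at 0.777 (0.644 to 0.937). By FPKM ratio, ABCA1 and ABCC3 were level, both at 0.858. ABCC1 (0.700) lay nearer to ABCA1 and to ABCG1 (0.745) by FPKM ratio than by counts. ABCG1 was also below ABCC2 (0.903), ABCC5 (0.842) and ABCG2 (0.917) by FPKM ratio. Against the other pumps, ABCC1 itself stood at 0.651 (0.625 to 0.678). Its share of the summed pump TPM was 32.2% in DMSO and 27.7% in FIN56. Summed pump counts had a ratio of 0.742 (0.728 to 0.757) with ABCC1 and 0.860 (0.840 to 0.881) without it, close to the 0.857 (0.805 to 0.912) of ABCA1 and ABCG1 together.

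Of the other subfamily A transporters, which mostly move phospholipids and sphingolipids, 6 of 11 passed, with a median log2 FPKM ratio of -0.40. The FPKM ratio was below 1 for 5 of these 6, against 47.3% of all genes. ABCA12, which loads glucosylceramide into the lamellar granules of keratinocytes, was the exception. It had 0.16 FPKM and 102 counts in DMSO and 0.32 FPKM and 189 counts in FIN56. The FPKM ratio was 2.0, from values rounded to 2 decimals, and the count ratio was 1.78 (1.39 to 2.29). The ABCA12 level was low in both libraries. ABCA7, a phospholipid transporter related to ABCA1, had 6.58 FPKM in DMSO and 4.96 in FIN56 and a count ratio of 0.623 (0.573 to 0.677). ABCA2, a lysosomal transporter abundant in brain, had 0.83 and 0.61 FPKM, with a count ratio of 0.682 (0.541 to 0.857). ABCA13 had 0.52 and 0.35 FPKM, an FPKM ratio of 0.673 just short of the 1/1.5 threshold, and a count ratio of 0.632 (0.538 to 0.742).

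ABCA10 and ABCA5 lie side by side on the minus strand of chromosome 17, and their annotated spans overlap by 536 bases. ABCA10 had 5.17 FPKM and 774 counts in DMSO and 3.92 FPKM and 607.09 counts in FIN56. ABCA5, a lysosomal lipid transporter, had 2.68 FPKM and 514 counts in DMSO and 2.66 FPKM and 601.91 counts in FIN56, an FPKM ratio of 0.993 with a count ratio of 1.12 (0.998 to 1.27). The 2 FIN56 counts are not whole but their sum is, 1209, so reads were divided between these genes and their separate values are uncertain. Together the pair had 1288 counts in DMSO, and a count ratio of 0.902 (0.833 to 0.976). The 3 neighbours in the same cluster, ABCA6, ABCA8 and ABCA9, had at most 4 counts in a library.

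The remaining subfamily B members of the set serve organelles. The FPKM ratio was below 1 for 4 of these 5, against 47.3% of all genes, with a median log2 FPKM ratio of -0.32. TAP1 and TAP2, which the symbol rule left out of the set, had FPKM ratios above 1 (1.18 and 1.16). ABCB6, a porphyrin transporter, had 5.93 FPKM and 931.80 counts in DMSO and 3.83 FPKM and 537.67 counts in FIN56. Its FPKM ratio of 0.646 was the lowest among the members, and its count ratio was 0.554 (0.498 to 0.617). The ABCB6 counts are not whole and another annotated gene overlaps it on the same strand, so its separate values are uncertain. The ABCB8 counts (2012.17 in DMSO and 1557.78 in FIN56) and the ABCB9 count in DMSO (1438.68) are not whole either. ABCB8, of the mitochondrial inner membrane, had 14.05 and 10.60 FPKM, with a count ratio of 0.744 (0.696 to 0.795). ABCB10, of the same membrane, which takes part in heme synthesis, had 8.50 and 6.79 FPKM, with a count ratio of 0.784 (0.736 to 0.834). ABCB9, a lysosomal peptide transporter, was, with ABCA5, a member whose FPKM and count ratios lay on opposite sides of 1, with 8.22 and 9.21 FPKM, an FPKM ratio of 1.12, and a count ratio of 0.990 (0.919 to 1.06). ABCC9, the sulfonylurea receptor subunit of potassium channels, had 0.13 and 0.16 FPKM and a count ratio of 1.17 (0.819 to 1.67).

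**Figure D3:**
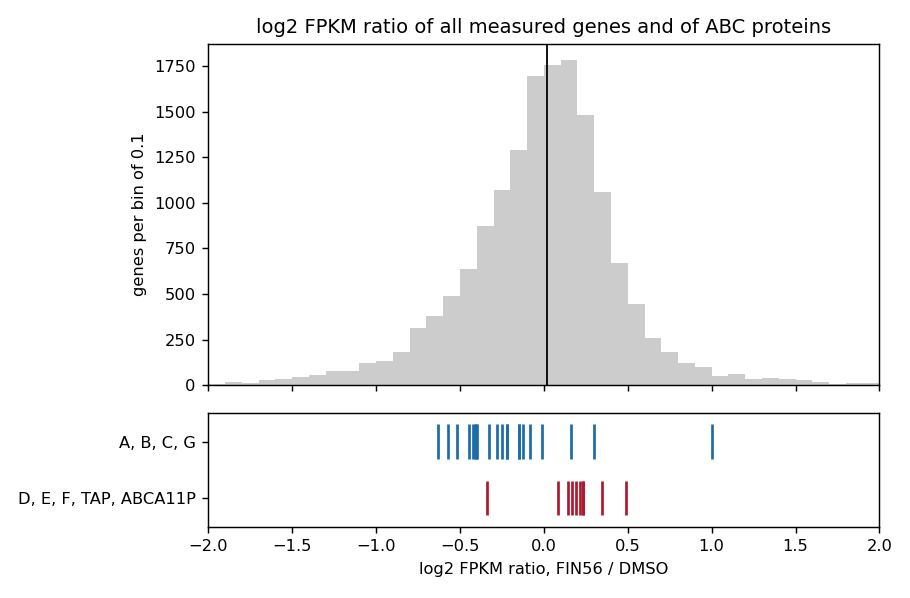
Distribution of the log2 FPKM ratio over the 15770 genes that passed the minimum, drawn from -2 to 2 with the median of all genes as a line. The lower panel marks the 21 members of subfamilies A, B, C and G, taken by symbol, with a median of -0.25. It also marks the 10 other ABC genes, TAP1, TAP2 and ABCA11P among them, with a median of 0.20.

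FPKM and counts parted where the effective length of a gene, which the authors' software estimates in each library from the isoforms it assigns reads to, differed between the libraries. The length implied by the deposited counts and FPKM was 5274 bases for ABCC1 in DMSO and 4221 in FIN56, a ratio of 0.800, and 1.62% of genes at 1 FPKM or more in both libraries had a lower one. The length was lower in FIN56 by over 10% for 5 of the 17 members at that level, against 8.91% of all such genes. These were ABCC1, ABCA7 (0.826), ABCC3 (0.850), ABCB6 (0.858) and ABCB9 (0.883). ABCC5 and ABCA5 went the other way, each with a ratio of 1.13, and the median over all genes was 0.997. Which isoforms gave these lengths was not analysed here.

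**Figure D4:**
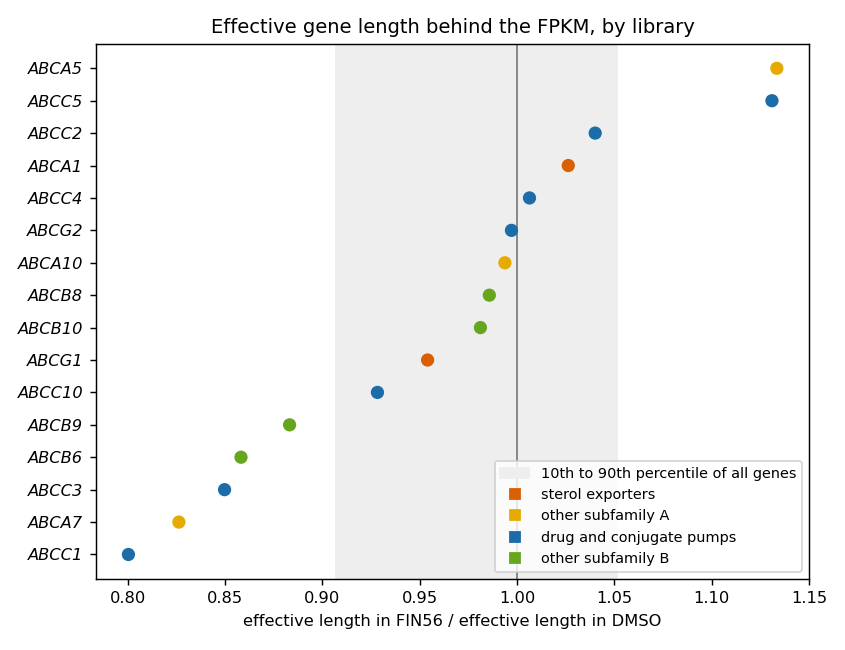
Implied effective length in FIN56 over that in DMSO for 16 of the 17 members at 1 FPKM or more in both libraries, beside the spread over all such genes. ABCC1 has the lowest ratio among the members, 0.800, against a median of 0.997 over all genes.

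The other 17 members fell below the minimum. ABCA4, ABCA8, ABCC8, ABCC12 and the pseudogene ABCC13 had 0 counts in both libraries, which allows up to 0.0427 CPM in DMSO and 0.0411 in FIN56, by counting error alone. ABCA3, ABCA6, ABCA9, ABCB1, ABCB4, ABCB5, ABCB11, ABCC6, ABCC11, ABCG4, ABCG5 and ABCG8 had between 1 and 17.27 counts over both libraries, and all but 1 had a counting interval that held 1. The exception, ABCB5, a relative of P-glycoprotein named here after its values were seen, had 6 counts in DMSO and 0 in FIN56, with an interval of the count ratio that ended at 0.816. The gap to the members that passed was wide, since the scarcest of those, ABCC9, had 133 counts. ABCC6 lies 6307 bases from ABCC1 on the opposite strand, and was among the nearly silent members while ABCC1 was the most abundant in DMSO.

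Genes known as liver X receptor partners or targets, other than ABCA1 and ABCG1, were also mostly lower. Of 15 listed, 12 passed, 9 had an FPKM ratio below 1, 5 stood at 1/1.5 or less and 0 at 1.5 or more, with a median log2 FPKM ratio of -0.34. Of all genes, 47.3% were below 1, 10.1% at 1/1.5 or less and 6.84% at 1.5 or more. SREBF1, the regulator of fatty acid synthesis, had 34.84 FPKM in DMSO and 13.42 in FIN56. PLTP, a phospholipid transfer protein, had 9.78 and 4.33 FPKM, and LPCAT3, which places polyunsaturated fatty acids in phospholipids, had 29.56 and 13.46 FPKM. NR1H3, the receptor LXRα, had 6.67 and 3.68 FPKM, and TTC39B had 4.76 and 3.06. The other receptor genes lay nearer to 1, with NR1H2 (LXRβ) at 19.29 and 18.23 FPKM, RXRA at 21.67 and 22.70, and RXRB at 12.27 and 9.88. ABCA1 (0.858) and ABCG1 (0.745) had higher FPKM ratios than these 5 genes.

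**Figure D5:**
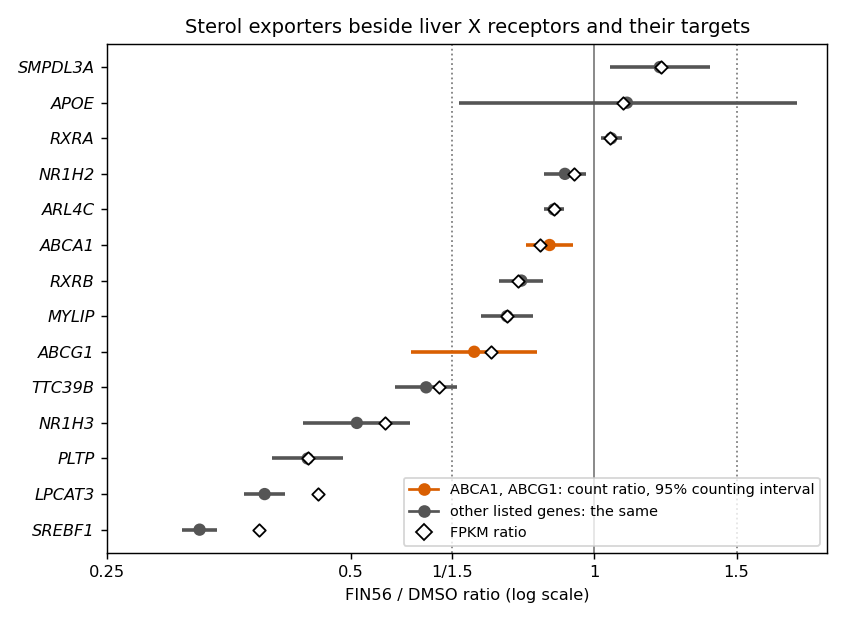
FPKM ratio with counting intervals of the count ratio for ABCA1, ABCG1 and the 12 genes of the liver X receptor list that passed the minimum, on a log axis. The FPKM ratios of SREBF1, PLTP, LPCAT3, NR1H3 and TTC39B lie at 1/1.5 or less, and those of ABCA1 and ABCG1 between that threshold and 1.

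Of 17 partners of sterol efflux and cell sterol handling, 14 passed, with a median log2 FPKM ratio of 0.01. STARD4, a cytosolic sterol carrier, was the only one at 1/1.5 or less, against 10.1% of all genes. It had 23.50 FPKM in DMSO and 11.65 in FIN56. At 1.5 or more stood 0, against 6.84% of all genes. APOA1, the acceptor of ABCA1, had 2 and 1 counts. Of 21 glutathione-conjugation genes, 20 were in the tables and 12 passed, with a median log2 FPKM ratio of -0.30. At 1/1.5 or less stood 4 of the 12, against 10.1% of all genes, and 0 stood at 1.5 or more, against 6.84%. The 4 were GSTZ1 (12.53 and 4.90 FPKM), GSTM4 (0.69 and 0.32), GGT7 (0.68 and 0.45) and GSTA4 (0.42 and 0.28). The last 3 were below 1 FPKM in both libraries. GSTZ1 is known for tyrosine breakdown, whereas the abundant GSTP1 had 408.13 and 324.51 FPKM. The FPKM ratio was below 1 for 8 of the 12, against 47.3% of all genes. Above 1 stood GSTO1 (197.57 and 231.77 FPKM), MGST3 (127.11 and 140.16), MGST2 (24.57 and 27.19) and GSTT2B (14.53 and 17.52).

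Of 11 transcription regulators known to act on pump genes, 9 passed and 0 lay past either threshold, with a median log2 FPKM ratio of 0.20. NR1I2, the pregnane X receptor, had 0 counts in both libraries. NFE2L2, the oxidative stress regulator NRF2 and a known activator of ABCC genes, had 51.53 FPKM in DMSO and 59.24 in FIN56. AHR, the aryl hydrocarbon receptor, had 11.55 and 14.81 FPKM. Of 16 ABC genes outside subfamilies A, B, C and G as defined here by symbol, including peroxisomal ABCD members, the ribosome-linked ABCE1 and ABCF proteins and the antigen-peptide pump TAP1 with TAP2, 10 passed and 9 had an FPKM ratio above 1, against 52% of all genes. Their median log2 FPKM ratio was 0.20, and 0 stood at 1.5 or more (6.84% of all genes) or at 1/1.5 or less (10.1%). The exception was ABCD4, a lysosomal vitamin B12 transporter, with 29.14 and 23.01 FPKM. Those above 1 included ABCA11P (1.27), TAP1 (1.18) and TAP2 (1.16), which only the symbol rule kept out of the set. Most of this list was thus on the other side of 1 from most of the 21 members, a difference that was not tested.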

How the data were processed

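The HSC-3 DMSO and HSC-3 FIN56 libraries were read from the deposited tables. The methods describe tumor samples and are taken to hold here. By those methods the authors aligned reads with STAR 2.6.1a to GRCh38 (Ensembl release 94) and quantified genes with RSEM 1.3.1. As deposited, expected counts carry no normalization. Deposited FPKM values were scaled by the software for depth and length and hold 2 decimals, so ratios of low values are coarse. Deposited TPM values add up to 1000000 in a library. Deposited rlog values are log2 values that DESeq2 1.26.0 shrinks. Per the labels the library kit was stranded, and whether counting used strand is not given in the sources used here.

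FPKM ratios were read against thresholds of 1.5, the criterion the study gives for higher genes, and its reciprocal, 1/1.5, and no test was possible with 1 library per condition. Counting intervals used rounded expected counts, and since reads carried no molecular identifiers they are not independent molecules. Ratios of ratios used the sample odds ratio with its exact conditional interval. Genes matching the symbol rule are named, with values from 10 counts in a library, except 1 that enters the counts and medians but is not reported here. From the other lists, genes past a threshold and the named receptors are given. The members and lists were chosen with earlier results of these data known. Positions came from GENCODE release 44, in which all 38 members were found, and promoters from RefSeq. The counting intervals and the threshold calls on count ratios were tested on simulated counts with counting error only. The other steps were not simulated. Python 3.11.15 (scipy 1.17.1), R 4.3.3, edgeR 4.0.16 and DESeq2 1.42.0 were used. Alternatives were TPM, rlog, 3 count scalings, 3 other minimums, 2 pseudocounts and a threshold of 2.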

Additional observations from a re-analysis of the deposited data

How the results depend on the processing

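No paired analysis was possible because there was only 1 DMSO and 1 FIN56 library, and no replicate could be left out. The median log2 FPKM ratio of -0.25 over the members stayed below 0 in all alternatives run, and was -0.088 with rlog, which shrinks differences. The number of members at 1.5 or more was 1 of 21 in the report, beside 1078 of 15770 genes. It was 0 of 21 with rlog, beside 7 of 15770 genes. With no minimum on counts it was 6 of 28, beside 3583 of 24454 genes. With at least 10 counts together it was 2 of 23, beside 2289 of 20236 genes. It was 0 of 17 with a mean of at least 1 FPKM, beside 578 of 12950 genes. With a pseudocount of 1 FPKM it was 0 of 21, beside 355 of 15770 genes. The number at 1/1.5 or less was also 1 of 21 in the report, beside 1596 of 15770 genes. It was 4 of 21 with counts scaled by TMM (1595 of 15770 genes), by median-of-ratios (1441) or by library totals (1589). It was 0 of 21 with rlog (16 of 15770 genes), with a pseudocount of 1 FPKM (665) and at a threshold of 2 (512). The difference between sterol exporters and pumps, -0.10, ran from -0.17 with no minimum to 0.0074 with a pseudocount of 1 FPKM, so its sign depends on the setting. Of the 21 members, 19 kept one sign throughout, and ABCA5 and ABCB9 did not. Depth limits the members under 50 counts and leaves the intervals of ABCC2 and ABCC9 on both sides of 1.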
